A study of Mus musculus with 18 samples.

Results

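Mitochondrial ribosomal proteins are the nuclear-encoded proteins of the ribosome that works inside mitochondria, and their genes were taken as those whose symbol in the platform annotation begins with Mrpl or Mrps and a digit. The rule reads names and no measured value. It gave 132 of the 45281 probes on the array, for 76 of 19057 genes, 48 named for the large subunit (Mrpl) and 28 for the small subunit (Mrps). RefSeq lists 78 protein-coding mouse genes with such names, and Mrpl41 and Mrps36 had no probe under their symbol. In the tests, 74 of the 76 genes took part, 46 of the large and 28 of the small subunit, because Mrpl19 and Mrpl32 stayed at background. Of the 74 genes, 73 were above background on all 18 arrays, and the exception, Mrps14, was above it on 3.

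The mitochondrial ribosome translates the few proteins that mitochondrial DNA encodes, all of them parts of the respiratory chain and of ATP synthase. Its RNAs come from mitochondrial DNA, whereas every one of its proteins is made in the cytosol and imported. Several proteins have bacterial counterparts, and others occur only in mitochondria. The letter in a symbol is not always a guide to position, since the mammalian proteins Mrps30 and Mrps18a sit in the large subunit. Adipocytes gain mitochondria as they differentiate, and the nuclear receptor PPARγ, the target of rosiglitazone, drives that differentiation.

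The cells were 3T3-L1, a line of mouse preadipocytes, which had differentiated into adipocytes for 7 days and had then spent 24 hours with DMSO, the vehicle, or with 1 of 5 compounds before RNA was taken. The compounds were rosiglitazone at 100 nM, sodium diclofenac at 25 µM, indomethacin at 10 µM, ibuprofen at 75 µM and GQ16 at 10 µM. Rosiglitazone is a synthetic PPARγ agonist, diclofenac, indomethacin and ibuprofen are non-steroidal anti-inflammatory drugs, and the series title names GQ16 beside those drugs as a PPARγ activator. Each group had 3 arrays, and whether these were separate cultures is not in the labels, so the p-values rest on a spread between samples that may be technical.

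All groups shared the line, the differentiation and the time, while the doses differed between compounds, so a difference between compounds is one between the doses used. Values are log2 intensities as the authors normalized them, and a gene was called where limma's adjusted p (Benjamini-Hochberg over all 10958 genes tested) was under 0.05. Fitted changes are given with their standard error (SE). The arrays lay on 3 slides, on which the groups were unevenly spread. The treatment labels and sample titles name no slide, and the source of the slide assignment is not given here. The 9 adipocyte markers on the array were all above background, and their summed log2 level ran from 100.35 to 101.53 on the DMSO arrays and from 99.96 to 101.84 on the others. At most 3 of the 9 were called lower with any compound (indomethacin), and 1 was called higher with ibuprofen. Of 6 macrophage markers, Adgre1, Ptprc, Itgam and Lyz2 were at background. The summed log2 level of the other two, Cd14 and Csf1r, ran from 13.67 to 14.02 in DMSO, 13.94 to 14.58 with rosiglitazone, 13.83 to 13.94 with diclofenac, 14.11 to 14.25 with indomethacin, 13.91 to 14.31 with ibuprofen and 13.79 to 13.84 with GQ16, so that the indomethacin arrays were above DMSO. In limma 0 of these 2 markers were called with any compound, and 1 was higher by unadjusted p with rosiglitazone and 1 with indomethacin. Their part in the levels of the ribosomal protein genes was not tested. Over all genes the arrays farthest from their group means were rosiglitazone replicates 1 and 2 and DMSO replicate 3, at root mean square log2 deviations of 0.29, 0.23 and 0.21, where the other arrays were at 0.09 to 0.19.

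The members were bright as a group. Their median normalized log2 intensity over the 18 arrays was 11.48, with quartiles of 10.62 and 12.1, against a median of 8.34 for all genes tested. Intensities of different probes do not rank genes by transcript number, so no member is set above another by level.

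Promoters are shown for 4 members that differed among the treatments, because nuclear genes for mitochondrial proteins are known for sites of a few transcription factors, NRF1, the ETS factor GABP and YY1 among them. These are the 4 members with the smallest F-test p-values that have a single entry in the RefSeq promoter table (build GRCm38.p6). Each line holds the 250 bases before the annotated start, 5′ to 3′ on the gene's strand. Capitals mark a match to a searched motif on either strand. The windows are chr1:37890227-37890476 on the plus strand for Mrpl30, chr11:59202236-59202485 on the plus strand for Mrpl55, chr17:35916441-35916690 on the minus strand for Mrps18b and chr2:130563507-130563756 on the plus strand for Mrps26.
Mrpl30: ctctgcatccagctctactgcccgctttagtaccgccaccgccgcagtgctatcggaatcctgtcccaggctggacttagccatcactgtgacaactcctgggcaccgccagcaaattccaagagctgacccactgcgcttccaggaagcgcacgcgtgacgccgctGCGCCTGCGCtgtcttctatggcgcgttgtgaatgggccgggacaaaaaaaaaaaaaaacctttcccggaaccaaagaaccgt
Mrpl55: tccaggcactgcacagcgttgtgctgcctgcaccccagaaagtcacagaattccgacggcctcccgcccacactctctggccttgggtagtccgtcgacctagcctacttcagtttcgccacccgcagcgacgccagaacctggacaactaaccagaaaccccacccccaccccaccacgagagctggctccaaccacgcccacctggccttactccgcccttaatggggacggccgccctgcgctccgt
Mrps18b: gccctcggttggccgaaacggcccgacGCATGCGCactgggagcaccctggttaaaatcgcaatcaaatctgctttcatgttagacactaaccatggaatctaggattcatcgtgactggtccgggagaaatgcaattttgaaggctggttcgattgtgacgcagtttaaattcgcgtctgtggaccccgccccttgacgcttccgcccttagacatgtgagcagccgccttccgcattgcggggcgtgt
Mrps26: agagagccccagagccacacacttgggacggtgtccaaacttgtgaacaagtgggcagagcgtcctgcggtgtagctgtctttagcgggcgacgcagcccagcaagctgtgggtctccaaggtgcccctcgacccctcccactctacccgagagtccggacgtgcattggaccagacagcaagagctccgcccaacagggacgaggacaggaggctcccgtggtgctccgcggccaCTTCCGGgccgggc
The capitals in Mrpl30 are a full NRF1 site on the reverse strand, those in Mrps18b the NRF1 core GCATGCGC, and those in Mrps26 the ETS motif CCGGAAG on the reverse strand. None of the searched motifs lies in the Mrpl55 window. Matches that reach past the start are not marked. Mrps26 has a full NRF1 site that crosses the start from base -2 and another from base 5 after it. Mrps18b has a further NRF1 core from base 29 and an ETS motif from base 44.

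Over all members with an entry, 67 genes with 73 promoters of 300 bases (250 before the start and 50 after it), the ETS motif CCGGAAG was in 26 promoters, 35.6%, against 11.6% of 21263 promoters of protein-coding genes. The YY1 motif AANATGGC was in 28.8% of member promoters and 6.37% of protein-coding ones. The full NRF1 site was in 17.8% against 6.38%, and the core GCATGCGC, which some full sites contain, was in 11.0% against 3.52%. The E-box CACGTG was in 9.59% against 7.84%. Both subunits held the motifs, with the ETS motif in 15 of 42 large-subunit genes and 11 of 25 small-subunit genes, and the full NRF1 site in 10 of 42 and 3 of 25. Among the 12 members with an entry that were called in the F test over the 6 groups, 7 held the ETS motif, 3 the full NRF1 site, 3 its core, 3 the YY1 motif and 3 the E-box. Among the 54 tested members not called, the counts were 19, 9, 4, 17 and 2. These are matches of letters, not shown binding sites.

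Against DMSO, more mitochondrial ribosomal protein genes were higher than lower with each of the 5 compounds, and each gene that passed the test rose. The median log2 change over the 74 genes was 0.22 with rosiglitazone, 0.20 with diclofenac, 0.19 with indomethacin, 0.19 with ibuprofen and 0.20 with GQ16, while the median of all genes tested lay between 0.00 and 0.01. Changes above 0 were measured for 60, 68, 58, 59 and 57 of the 74 genes in the same order, or 81.1%, 91.9%, 78.4%, 79.7% and 77.0%. Over all genes these shares were 49.6%, 52.1%, 50.5%, 49.4% and 51.8%. The 5 comparisons share the 3 DMSO arrays and so are not independent of one another. Each array holds the RNA of a whole culture, in which fewer cells of a type and less RNA per cell cannot be told apart.

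**Figure D1:**
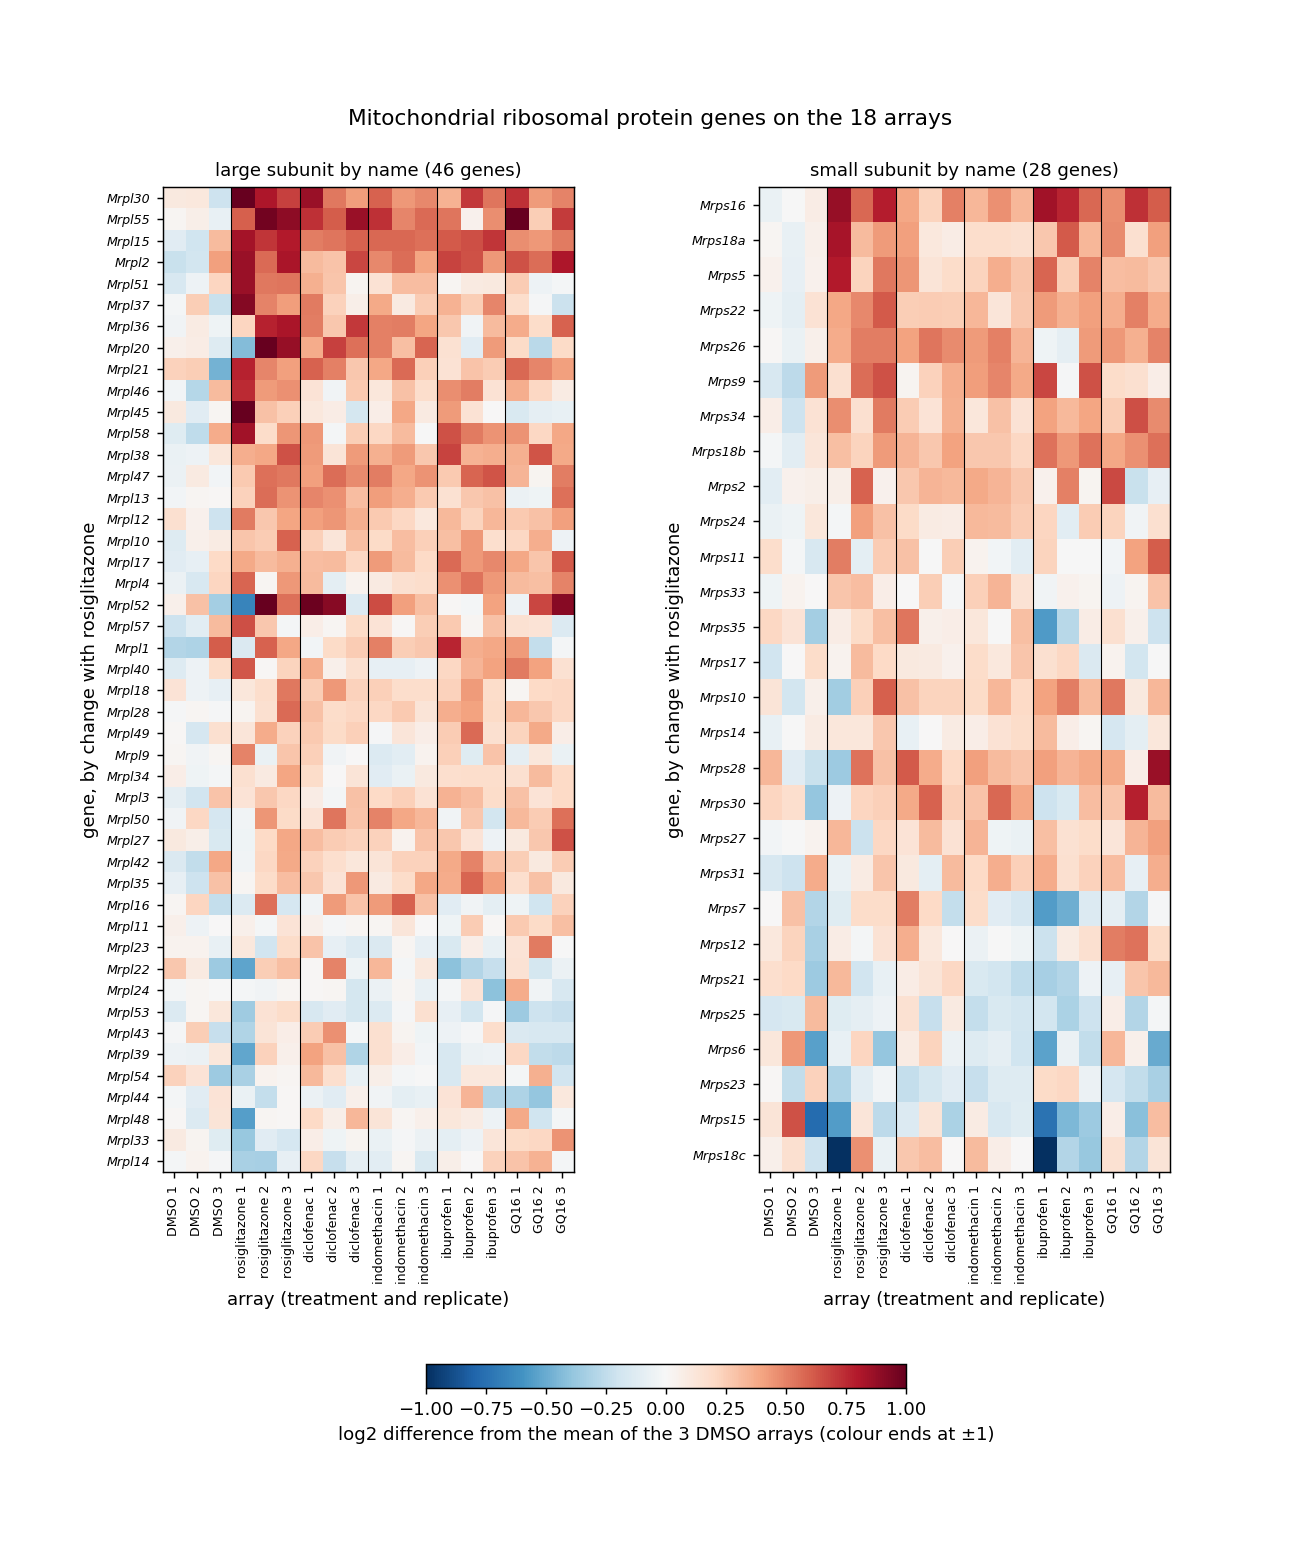
Log2 difference of each of the 74 tested genes from the mean of its 3 DMSO arrays, by array (columns) and gene (rows), for the 46 genes named for the large subunit and the 28 named for the small subunit. Red is higher and blue lower; genes are ordered by their change with rosiglitazone, and most genes in the upper part are red in all 5 treated groups.

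The shift was present on each of the 15 treated arrays. The median difference from the DMSO mean was 0.12, 0.24 and 0.29 on rosiglitazone replicates 1, 2 and 3. It ran from 0.18 to 0.27 on the diclofenac arrays, from 0.18 to 0.19 on the indomethacin arrays, from 0.17 to 0.22 on the ibuprofen arrays and from 0.19 to 0.24 on the GQ16 arrays. The 3 DMSO arrays lay at -0.01, -0.01 and 0.03, and no treated array overlapped them. They lie near 0 by construction, because each gene was set against the mean of these same 3 arrays. Without that step, the members' median log2 intensity was 11.31, 11.43 and 11.28 in DMSO and 11.45 to 11.64 on the treated arrays. For genes named for the small subunit it was 11.53, 11.52 and 11.09 against 11.31 to 11.59, which overlapped. Rosiglitazone replicate 1, which was hybridised on another slide than the other two, was the lowest treated array.

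**Figure D2:**
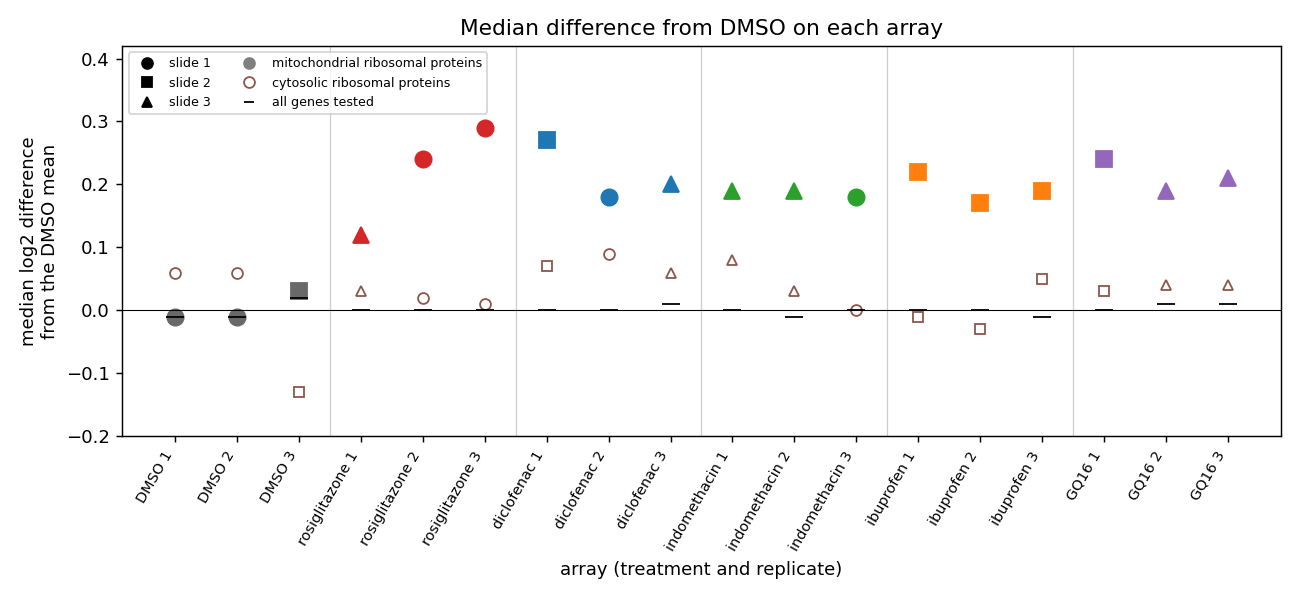
Median log2 difference from the DMSO mean on each of the 18 arrays (horizontal axis) for the 74 mitochondrial ribosomal protein genes (filled symbols, shaped by slide), the 54 cytosolic ribosomal protein genes (open symbols) and all genes tested (dashes). The mitochondrial ribosomal protein genes lie between 0.12 and 0.29 on the treated arrays, and all genes stay between -0.01 and 0.02.

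The genes of the cytosolic ribosome served as a comparison of the same kind of protein. Their median change was 0.00, 0.06, 0.04, -0.02 and 0.04 in the same order of compounds, over 54 tested genes of 62 on the array. With rosiglitazone 2 of them rose, Rpl7a by 0.73 (SE 0.16, limma adjusted p = 0.00281) and Rps7 by 0.40 (SE 0.12, adjusted p = 0.0246). With the other 4 compounds limma called 0 of the 54. Unadjusted p-values under 0.05 numbered 3 higher and 0 lower (diclofenac), 5 and 0 (indomethacin), 0 and 1 (ibuprofen) and 6 and 1 (GQ16). On DMSO replicate 3 the cytosolic median was -0.13 from the DMSO mean, the lowest of the 18 arrays, and that of the mitochondrial ribosomal protein genes was 0.03.

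**Figure D3:**
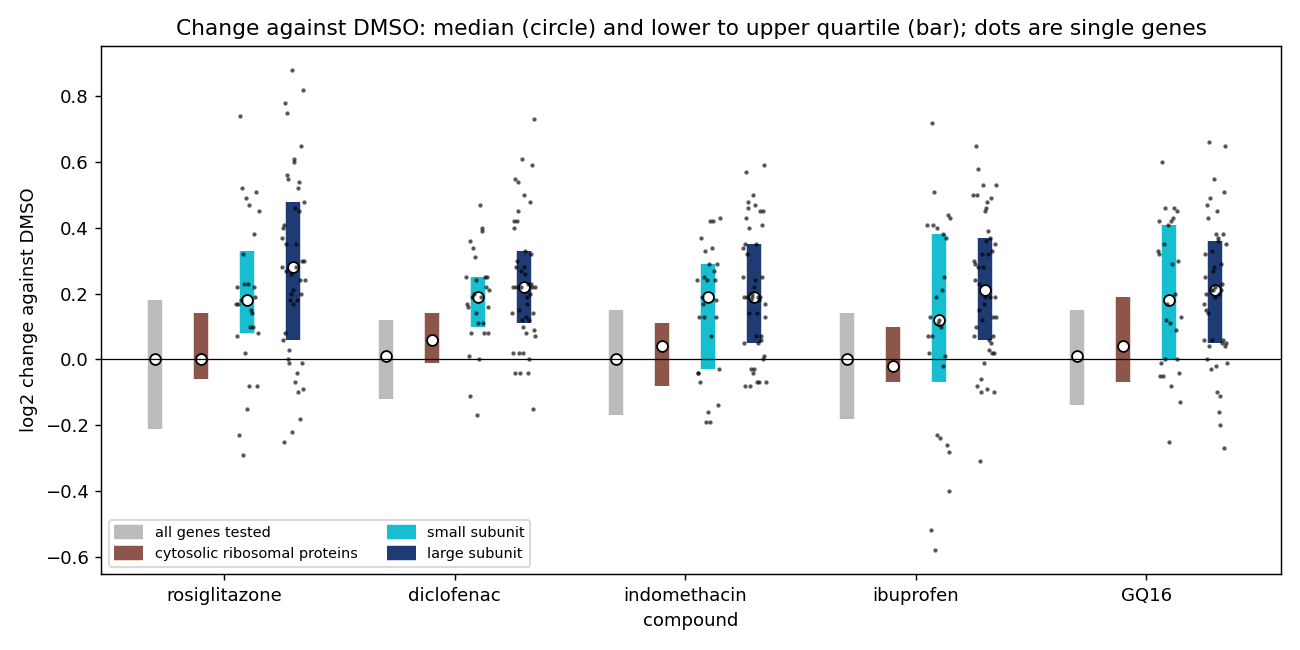
Log2 change against DMSO (vertical axis) with each compound (horizontal axis), as the median (circle) and the span from lower to upper quartile (bar) for all 10958 genes tested, 54 cytosolic ribosomal proteins, 28 genes named for the small subunit and 46 named for the large subunit; dots are single member genes. Medians of both subunits lie between 0.12 and 0.28, above those of all genes and of the cytosolic ribosome.

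Both subunits were shifted. The median change of the large-subunit genes was 0.28, 0.22, 0.19, 0.21 and 0.21 with rosiglitazone, diclofenac, indomethacin, ibuprofen and GQ16, and that of the small-subunit genes was 0.18, 0.19, 0.19, 0.12 and 0.18. The difference between the subunits was not tested. The small-subunit genes spread more widely with ibuprofen, from -0.58 to 0.72, than the large-subunit genes, from -0.31 to 0.65.

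The F test over the 6 treatment groups called 13 of 74 members, 17.6%, and 18.5% of all genes tested, so the members were called about as often as any gene. The 13 were Mrpl15, Mrpl30, Mrpl2, Mrpl55, Mrpl51, Mrpl33, Mrpl17, Mrpl37 and Mrpl36 of the large subunit and Mrps16, Mrps18b, Mrps26 and Mrps22 of the small subunit. Of these, 11 had their lowest group mean in DMSO, the exceptions being Mrpl33, lowest with rosiglitazone, and Mrpl37, lowest with GQ16. Over all 74 members, called or not, 44 had their lowest mean in DMSO, 59.5%, against 21.3% of all genes.

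Rosiglitazone gave the most calls. With it, 23 of 74 members rose (31.1%) and 0 fell, where 8.06% of all genes rose and 10.0% fell. Without adjustment (p under 0.05), 28 were higher and 1 lower, against 15.4% and 17.3% of all genes. In 27 members all 3 rosiglitazone arrays were higher than all 3 DMSO arrays, 36.5% against 13.1% of all genes. The 23 were 16 genes named for the large subunit and 7 named for the small subunit, Mrps18a among these, with fold changes from 1.25 for Mrps18b to 1.84 for Mrpl30.

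Mrpl15, a large-subunit protein with a bacterial counterpart, rose with all 5 compounds. Its normalized log2 intensity was 12.14, 12.06 and 12.57 in DMSO and 13.09, 12.97 and 13.05 with rosiglitazone. The diclofenac arrays stood at 12.77, 12.79 and 12.85, the indomethacin arrays at 12.83, 12.83 and 12.81, the ibuprofen arrays at 12.87, 12.90 and 12.97, and the GQ16 arrays at 12.72, 12.69 and 12.78. All 15 treated arrays were above all DMSO arrays, and DMSO replicate 3 lay closest to them. The changes were 0.78 with rosiglitazone (adjusted p = 2.9e-05), 0.55 with diclofenac (0.00824), 0.57 with indomethacin (0.00166), 0.65 with ibuprofen (0.00053) and 0.47 with GQ16 (0.0350), each with an SE of 0.11 in limma's fit. Of its 7 probes 6 were above background, and with rosiglitazone their changes ran from -0.05 to 0.97, with 5 of them called higher and 0 lower. With diclofenac, indomethacin, ibuprofen and GQ16 all 6 were above 0, but 1, 2, 3 and 1 of them were called. The probe used had the largest change of the 6 with each of these compounds. The smallest changes were 0.14, 0.25, 0.08 and 0.16.

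Mrpl30, another large-subunit protein with a bacterial counterpart, had the largest change with rosiglitazone. It stood at 11.72, 11.73 and 11.42 in DMSO and at 12.78, 12.43 and 12.31 with rosiglitazone. The ranges in the other groups were 12.04 to 12.49 with diclofenac, 12.06 to 12.21 with indomethacin, 11.97 to 12.33 with ibuprofen and 12.05 to 12.35 with GQ16. Again no treated array overlapped DMSO. It rose by 0.88 with rosiglitazone (SE 0.15, limma adjusted p = 0.00015), 0.61 with diclofenac (adjusted p = 0.0261), 0.50 with indomethacin (0.0275) and 0.53 with ibuprofen (0.0222).

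Mrps16, a small-subunit protein with a bacterial counterpart, whose loss in humans causes a respiratory chain disorder, was at 10.60, 10.66 and 10.74 in DMSO. It was at 11.54, 11.24 and 11.45 with rosiglitazone, at 11.51, 11.43 and 11.24 with ibuprofen and at 11.13, 11.40 and 11.27 with GQ16. The diclofenac arrays, at 11.05, 10.89 and 11.17, and the indomethacin arrays, at 11.00, 11.12 and 11.00, lay between these and DMSO, and no treated array overlapped DMSO. It rose by 0.74 with rosiglitazone (SE 0.13, limma adjusted p = 0.000269), 0.72 with ibuprofen (adjusted p = 0.000784) and 0.60 with GQ16 (0.0229).

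Mrpl2, the counterpart of a bacterial protein near the peptidyl transferase centre, had 1 DMSO array apart from the other 2. Its DMSO values were 10.78, 10.82 and 11.41, its rosiglitazone values 11.87, 11.57 and 11.82, its ibuprofen values 11.68, 11.64 and 11.44 and its GQ16 values 11.64, 11.56 and 11.81. DMSO replicate 3, at 11.41, was above 2 of the diclofenac arrays, at 11.32 and 11.29, and 1 of the indomethacin arrays, at 11.40. It rose by 0.75 with rosiglitazone (SE 0.15, limma adjusted p = 0.0015), 0.58 with ibuprofen (adjusted p = 0.0201) and 0.66 with GQ16 (0.0335).

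Mrpl55, a large-subunit protein without a bacterial counterpart, was at 7.92, 7.96 and 7.83 in DMSO, the narrowest spread among the large-subunit genes described so far. It was at 8.50, 8.87 and 8.80 with rosiglitazone, 8.63, 8.51 and 8.77 with diclofenac, and 8.63, 8.39 and 8.47 with indomethacin. The ibuprofen arrays, at 8.44, 7.95 and 8.37, overlapped DMSO, and the GQ16 arrays, at 8.91, 8.15 and 8.60, were above it but spread widely. It rose by 0.82 with rosiglitazone (SE 0.18, limma adjusted p = 0.00239), 0.73 with diclofenac (adjusted p = 0.0292) and 0.59 with indomethacin (0.0346).

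Mrps18b is 1 of 3 mammalian paralogs of a single bacterial small-subunit protein, the others being Mrps18a and Mrps18c. Its values were 11.93, 11.84 and 12.07 in DMSO, 12.25, 12.17 and 12.37 with rosiglitazone, 12.49, 12.38 and 12.49 with ibuprofen and 12.33, 12.40 and 12.50 with GQ16. All treated arrays were above DMSO. It rose by 0.32 with rosiglitazone (SE 0.11, limma adjusted p = 0.0417), 0.51 with ibuprofen (adjusted p = 0.00365) and 0.46 with GQ16 (0.0318). Its 3 probes moved the same way in all 5 comparisons. The paralog Mrps18a rose with rosiglitazone by 0.52 (SE 0.14, adjusted p = 0.0108).

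The paralog Mrps18c, which in mammals takes the place of the bacterial protein, was not called in any comparison. It was at 10.95, 11.06 and 10.69 in DMSO, at 9.63, 11.36 and 10.83 with rosiglitazone and at 9.83, 10.61 and 10.52 with ibuprofen. The rosiglitazone arrays lay on both sides of DMSO, and the ibuprofen arrays were all below it. Its change was -0.58 with ibuprofen (SE 0.27, limma adjusted p = 0.199), the lowest of any member in the 5 comparisons with DMSO, and -0.29 with rosiglitazone (adjusted p = 0.492).

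**Figure D4:**
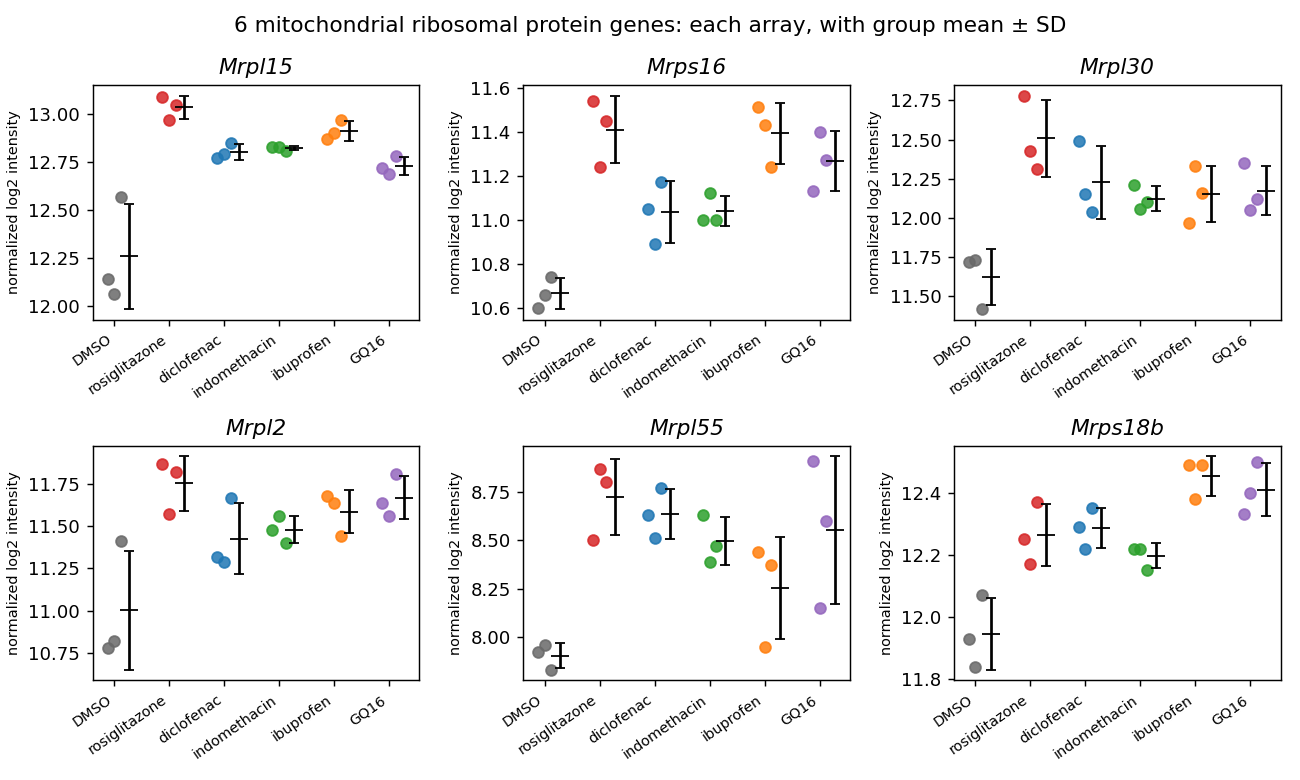
Normalized log2 intensity (vertical axes, not starting at 0) of Mrpl15, Mrps16, Mrpl30, Mrpl2, Mrpl55 and Mrps18b in the 6 groups. Points are single arrays, and the bar beside them is the group mean ± SD (n = 3); DMSO has the lowest mean in each panel.

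The other members that rose with rosiglitazone held parts of the stalk that recruits translation factors, Mrpl10 (0.37, SE 0.12, limma adjusted p = 0.0321) and Mrpl12 (0.40, SE 0.11, 0.0131). They also held Mrpl45, which lies at the exit of the peptide tunnel and helps to anchor the ribosome to the inner membrane (0.52, SE 0.16, 0.0292, but 0.27 and 0.202 without rosiglitazone replicate 1), and Mrpl17, also near the exit (0.35, SE 0.11, 0.0335). Further rises in the large subunit were those of Mrpl51 (0.65), Mrpl37 (0.61), Mrpl36 (0.60), Mrpl21 (0.55), Mrpl46 (0.54), Mrpl38 (0.46), Mrpl47 (0.45) and Mrpl13 (0.41). In the small subunit Mrps5 rose by 0.51, Mrps22 by 0.49, Mrps26 by 0.47 and Mrps34 by 0.38. All 23 had their 3 rosiglitazone arrays above their 3 DMSO arrays. Below 0 with rosiglitazone but not called, Mrps18c was followed by Mrpl14 (-0.25, adjusted p = 0.188) and Mrps15 (-0.23, adjusted p = 0.559).

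With diclofenac 3 of 74 members rose, Mrpl55, Mrpl30 and Mrpl15, and 0 fell, or 4.05% against 0.621% of all genes that rose and 1.48% that fell. Before adjustment 18 passed 0.05 as higher and 0 as lower, against 6.01% and 7.79% of all genes. In 26 members, all 3 diclofenac arrays were above DMSO, against 11.5% of all genes. The lowest changes were -0.17 for Mrps23 (limma adjusted p = 0.617), -0.15 for Mrpl53 (0.665) and -0.11 for Mrps15 (0.918).

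With indomethacin 5 of 74 members rose (6.76%) and 0 fell, where 3.58% of all genes rose and 6.65% fell. Beside Mrpl55, Mrpl15 and Mrpl30, these were Mrpl47, by 0.45 (SE 0.14, limma adjusted p = 0.0440), and Mrps26, by 0.42 (SE 0.13, adjusted p = 0.0413). Mrps26 was at 11.04, 10.96 and 11.08 in DMSO and at 11.45, 11.53 and 11.37 with indomethacin, with no overlap. Its other probe above background did not follow, at -0.03 with indomethacin and 0.06 with rosiglitazone. The unadjusted counts were 21 higher and 0 lower, against 9.86% and 13.5% of all genes, and in 25 members all indomethacin arrays were above DMSO, against 15.9% of all genes. The lowest changes were -0.19 for Mrps21 (adjusted p = 0.499), -0.19 for Mrps25 (0.511) and -0.16 for Mrps23 (0.504).

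With ibuprofen 10 of 74 members rose (13.5%) and 0 fell, where 4.26% of all genes rose and 5.20% fell. Beside Mrps16, Mrpl15, Mrpl2, Mrpl30 and Mrps18b, these were Mrpl17 (0.50, SE 0.11, limma adjusted p = 0.00719), Mrpl47 (0.49, SE 0.14, 0.0309), Mrpl4 of the exit tunnel (0.48, SE 0.15, 0.0479), Mrpl38 (0.46, SE 0.13, 0.0229) and Mrps22 (0.40, SE 0.11, 0.0275). Unadjusted, 27 were higher and 2 lower, against 11.1% and 12.7% of all genes. In 27 members all ibuprofen arrays were above DMSO, against 14.5% of all genes. After Mrps18c, the lowest changes were -0.52 for Mrps15 (adjusted p = 0.219) and -0.40 for Mrps7 (0.159). Without DMSO replicate 3 and rosiglitazone replicate 1, 24 members rose and 6 fell with ibuprofen. This pair was taken from an earlier account of these data and is not the 2 arrays farthest from their groups. In that fit all ibuprofen arrays lay on slide 2 and all DMSO arrays on slide 1, so compound and slide cannot be told apart. The share of all genes called in that fit is not given beside these counts, so they describe the fit and not the members.

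With GQ16 4 of 74 members rose, Mrpl2, Mrps16, Mrpl15 and Mrps18b, and 0 fell, or 5.41% against 0.684% of all genes that rose and 0.748% that fell. By unadjusted p, 25 were higher and 1 lower, against 8.94% and 8.09% of all genes, and in 24 members all GQ16 arrays were above DMSO, against 10.4% of all genes. The lowest changes were -0.27 for Mrpl53 (limma adjusted p = 0.268), -0.25 for Mrps23 (0.334) and -0.20 for Mrpl44 (0.556).

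Over the 5 comparisons, which share the DMSO arrays, 24 members were called higher with at least 1 compound (32.4%, against 10.6% of all genes) and 50 were called with none. Called with 3 compounds each were Mrpl2, Mrpl47, Mrpl55, Mrps16 and Mrps18b. The 44 members with their lowest mean in DMSO are those whose change was above 0 with all 5 compounds. In Mrps15 it was above 0 with none. The highest change of Mrpl53 (with indomethacin) and of Mrps25 (with diclofenac) was above 0 but rounded to 0. At the level of single probes, 116 of the 132 were above background, and 33, 3, 7, 15 and 4 of them were called higher with rosiglitazone, diclofenac, indomethacin, ibuprofen and GQ16, with 0 called lower by limma. These are 28.4%, 2.59%, 6.03%, 12.9% and 3.45% of the member probes, and over all 17674 probes kept the shares called higher were 8.16%, 0.413%, 3.54%, 5.70% and 0.538% and those called lower 8.81%, 1.07%, 5.40%, 4.75% and 0.707%. Of 28 genes with more than 1 such probe, between 17 and 23 had all probes on the same side of 0. Called genes were among the others: a second probe of Mrps26 was at -0.03 with indomethacin, and one of Mrpl38 at -0.04 with ibuprofen.

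Many single calls depended on single arrays. Of the 23 rosiglitazone calls, 7 stayed whichever array was left out, those of Mrpl15, Mrpl55, Mrpl30, Mrps22, Mrpl51, Mrps16 and Mrpl2. Without DMSO replicate 2, 12 of the 23 were lost, and without rosiglitazone replicate 1, 10. With ibuprofen, Mrpl15, Mrps16 and Mrps18b stayed called throughout, and with indomethacin Mrpl15 did. With diclofenac all 3 calls were lost without DMSO replicate 1 or 2. With GQ16 all 4 were lost without DMSO replicate 1 or 2 or GQ16 replicate 2 or 3. The median change over the 74 members, in contrast, lay between 0.16 and 0.28 in the 5 comparisons whichever array was left out.

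Slides were compared because the groups were not spread evenly over them. Within slide 1, which held DMSO replicates 1 and 2, the median change of the members was 0.31 with rosiglitazone, 0.19 with diclofenac and 0.19 with indomethacin. Within slide 2, which held DMSO replicate 3, it was 0.21 with diclofenac, 0.17 with ibuprofen and 0.22 with GQ16. Each of these lay above 0, as over all arrays. Slide 3 held no DMSO array. With slide as a block in the fit, 20 of the 23 calls with rosiglitazone, all 3 with diclofenac, 4 of 5 with indomethacin, 3 of 10 with ibuprofen and 0 of 4 with GQ16 were kept. Calls lost there could keep much of their change: that of Mrpl47 with ibuprofen went from 0.49 to 0.54 (limma adjusted p = 0.0728), that of Mrps22 with ibuprofen from 0.40 to 0.37 (0.146) and that of Mrps18b with GQ16 from 0.46 to 0.40 (0.148). All ibuprofen arrays lay on slide 2.

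Compared with rosiglitazone, limma called 0 of 74 members with diclofenac, indomethacin or ibuprofen, where 1.94%, 0.0365% and 1.34% of all genes were called. The median differences from rosiglitazone were -0.03, -0.05 and -0.08. Within slide 1 they were -0.11 with diclofenac and -0.13 with indomethacin, and within slide 3, which held rosiglitazone replicate 1, they were 0.09 and 0.01, so that the direction turned between the slides. No slide held arrays of both ibuprofen and rosiglitazone. Before adjustment, 2 members were higher and 9 lower with diclofenac, where 8.31% and 7.25% of all genes were. With indomethacin the counts were 0 and 11 (4.56% and 4.20% of all genes), and with ibuprofen 1 and 7 (8.18% and 8.01%). A difference that misses the threshold does not show that the compounds act alike, and the doses differed.

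GQ16 and rosiglitazone differed in 5 of 74 members, 6.76% against 14.8% of all genes, a lower share, whose difference was not tested. Mrpl37, without a bacterial counterpart, was at 12.09, 11.67 and 11.59 with rosiglitazone and at 11.35, 11.16 and 10.96 with GQ16, close to its DMSO values of 11.15, 11.42 and 10.95. It was lower with GQ16 by 0.63 on the log2 scale (95% interval of the change -0.96 to -0.30, limma adjusted p = 0.0103). Mrpl45 was at 7.95, 7.23 and 7.17 with rosiglitazone and 6.78, 6.84 and 6.86 with GQ16 (change -0.62, -0.96 to -0.29, adjusted p = 0.0120). Without rosiglitazone replicate 1 the change of Mrpl45 was -0.38 (adjusted p = 0.0643). Mrpl51 was at 9.68, 9.34 and 9.35 against 9.07, 8.76 and 8.79 (change -0.59, -0.90 to -0.27, adjusted p = 0.0132). In each of these 3 genes the GQ16 arrays lay below all rosiglitazone arrays, and rosiglitazone replicate 1 was the highest.

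The other 2 genes were higher with GQ16 than with rosiglitazone. Mrpl33 was at 13.31, 13.33 and 13.57 with GQ16 and 12.74, 13.01 and 12.95 with rosiglitazone (change 0.50, 0.28 to 0.72, limma adjusted p = 0.0026), and the DMSO arrays, at 13.21, 13.15 and 13.00, lay below those of GQ16 and overlapped those of rosiglitazone. Mrpl14, a conserved protein of the face between the subunits, was at 12.40, 12.46 and 12.09 with GQ16 and 11.79, 11.78 and 12.03 with rosiglitazone (change 0.45, 0.18 to 0.72, adjusted p = 0.0219). The 5 members were all of the large subunit by name. Of the 5 calls, that of Mrpl33 stayed whichever array was left out. The call of Mrpl14 was lost without rosiglitazone replicate 2 or GQ16 replicate 1 or 2 (limma adjusted p up to 0.0955) and with slide as a block (change 0.39, 0.0556). The call of Mrpl37 was lost without GQ16 replicate 3 (0.0513) and that of Mrpl51 without GQ16 replicate 2 (0.0510). Within slide 3 the median difference of the 74 members between GQ16 and rosiglitazone was 0.04.

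Other genes of the same machinery were followed as separate lists. Of 22 tested assembly factors 1 rose with rosiglitazone and with ibuprofen, in both cases Ddx28, an RNA helicase of large-subunit assembly (0.62, SE 0.15, limma adjusted p = 0.00403, and 0.85, SE 0.15, adjusted p = 0.000459). That is 4.55% of the list, against 8.06% of all genes that rose with rosiglitazone and 4.26% with ibuprofen. The list's medians lay between 0.08 and 0.11 in all 5 comparisons. Of 16 tested translation factors and their partners, 3 rose with rosiglitazone, 18.8%: the initiation factor Mtif2 (0.49, adjusted p = 0.0273), the elongation factor Tufm (0.41, 0.0153) and Rmnd1 (0.53, 0.0260). With ibuprofen Mtif2 (0.48, 0.0459), Tufm (0.41, 0.0246) and Taco1, an activator of translation (0.46, 0.0443), rose and the RNA-binding Slirp fell by 0.54 (0.0405). With diclofenac, indomethacin and GQ16 limma called 0 of the 16, and at an unadjusted p under 0.05 there were 0 higher and 0, 0 and 2 lower.

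Among 15 tested genes of mitochondrial DNA transcription and RNA processing, Tbrg4 rose with rosiglitazone (0.70, SE 0.16, limma adjusted p = 0.0037), diclofenac (0.70, SE 0.16, 0.0183) and indomethacin (0.69, SE 0.16, 0.00608), and the RNA helicase Supv3l1 rose with indomethacin (0.51, SE 0.15, 0.0300). The 4 tested ribosomal proteins with other kinds of names had no call and median changes between -0.10 and 0.03, with 0 past an unadjusted p of 0.05 in the comparisons with DMSO. The 8 genes on mitochondrial DNA, whose messages this ribosome translates, had no limma call and median changes of -0.04, 0.11, 0.03, -0.09 and 0.10. Unadjusted p-values under 0.05 numbered 0 higher and 0 lower (rosiglitazone), 2 and 0 (diclofenac), 0 and 2 (indomethacin), 1 and 1 (ibuprofen) and 1 and 0 (GQ16).

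Of 9 tested regulators of nuclear genes for mitochondria, 2 rose with rosiglitazone (22.2%, against 8.06% of all genes), 1 with indomethacin (11.1%, against 3.58%) and 1 with ibuprofen (11.1%, against 4.26%), and none fell. Ppargc1a, a coactivator of PPARγ and of mitochondrial gene expression, rose with rosiglitazone by 0.94 (SE 0.17, limma adjusted p = 0.000463), with indomethacin by 0.85 (SE 0.17, 0.00205) and with ibuprofen by 1.05 (SE 0.17, 0.000343). Its change was 0.28 with diclofenac (0.510) and 0.07 with GQ16 (0.881). The part of Ppargc1a in the levels of the ribosomal protein genes was not tested. Esrra, a nuclear receptor that works with it, rose with rosiglitazone by 0.51 (SE 0.15, 0.0179) and was at 0.45 with GQ16 (0.119). The transcription factors Nrf1 (-0.01 to 0.24), Gabpa (-0.24 to 0.41) and Tfam (0.02 to 0.30) were not called with any compound.

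Markers of undifferentiated cells were lower than in DMSO on all arrays of rosiglitazone, diclofenac, indomethacin and ibuprofen, while the GQ16 arrays overlapped DMSO. The summed log2 level of 10 preadipocyte and fibroblast markers, all above background, was 97.83 to 99.52 in DMSO. It was 90.54 to 94.82 with rosiglitazone, 94.56 to 96.16 with diclofenac, 92.55 to 93.93 with indomethacin, 94.28 to 96.21 with ibuprofen and 96.31 to 98.55 with GQ16. Of the 10 markers, 6, 2, 5, 3 and 0 fell in that order, where 10.0%, 1.48%, 6.65%, 5.20% and 0.748% of all genes fell. With GQ16 2 were lower by an unadjusted limma p under 0.05, against 8.09% of all genes. The part of this change in the levels of the ribosomal protein genes was not tested. On the single arrays the marker sums were 98.55, 96.31 and 98.29 with GQ16 and 99.37, 99.52 and 97.83 in DMSO.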

How the data were processed

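The values used are the log2 intensities that the authors deposited, 1 per probe and array, from Illumina mouse BeadChips. GenomeStudio and lumi are named per the submitters' processing notes, and the sources used here give neither version nor setting. The sorted values of the 18 arrays agreed within 0.0016, so the arrays had been made equal in distribution, which hides any change of most transcripts in one direction. Dim probes are compressed toward the floor of 5.68. Non-normalized signals were also in the files but were left aside, since the names of the 36 value columns match no sample.

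The platform annotation gave 1 gene symbol for 34885 of 45281 probes, several for 18 and none for 10378. All 76 members were found in a RefSeq table (GRCm38.p6) by Entrez identifier. Background was 6.18, the 95th percentile of 1526 probes for receptors of the olfactory, vomeronasal and trace amine families. Probes above it on at least 3 arrays were kept (17674 with 1 symbol), and the one with the highest mean stood for its gene, which gave 10958 genes. Of all probes, 42.1% passed it on each array, and with arrays it is their number that limits precision.

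Groups were taken from the treatment labels. A single limma fit (version 3.58.1, R 4.3.3) over the 18 arrays had 1 mean per group, 12 residual degrees of freedom and an intensity trend in the variance prior. It gave the F test and two-sided moderated tests of 5 compounds against DMSO and 4 against rosiglitazone. The settings of this fit were checked on simulated data, for added changes with rosiglitazone and for false calls with diclofenac. The F test and the alternative fits were not checked in that way. Named are all members called in any test, the 3 largest rises and falls per comparison with DMSO, members at background, called genes of the other lists, and Ppargc1a, Nrf1, Gabpa, Esrra and Tfam. A further part of this rule, the members of highest and lowest level, was set aside because probe brightness does not compare genes. The family was taken up, and its lists chosen, with earlier results of these data known, although the rule for members reads names alone.

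Alternatives were slide as a fixed or random block, fits within slides, a replicate block, each array left out, DMSO replicate 3 and rosiglitazone replicate 1 left out together (a pair from an earlier account of these data), the compared groups alone, no filter, the mean of a gene's probes, no intensity trend and arrays shifted to a common median.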

Additional observations from a re-analysis of the deposited data

How the results depend on the processing

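The sign of the 50 called member values did not change under any of their 1453 recomputed values, of which 1193 stayed called. The counts of called members moved more, and the cause was not tested. These counts stand without the share of all genes called in the same fit, so they describe the fits and not the members. With slide as a fixed block, 3 members were called with ibuprofen, 0 with GQ16 and 2 with diclofenac against rosiglitazone, and the indomethacin median was 0.24; with a random slide block 1 was called with GQ16. Within slide 1 the rosiglitazone median was 0.31 and 1 member was called with diclofenac and 2 with indomethacin; within slide 2, 0 were called with diclofenac, ibuprofen and GQ16, from fewer arrays; within slide 3, 2 with indomethacin against rosiglitazone. Without DMSO replicate 3 and rosiglitazone replicate 1, the F test called 28 members, and 6 were called with diclofenac, 15 with indomethacin, 30 with ibuprofen (24 higher, 6 lower), 15 with GQ16, and 4 with ibuprofen and 9 with GQ16 against rosiglitazone. The medians then were 0.31 with rosiglitazone, 0.23 with indomethacin and 0.25 with GQ16. Without DMSO replicate 3, no slide held DMSO arrays together with ibuprofen or GQ16 arrays. For these compounds treatment and slide cannot be told apart there. Fits of the compared groups alone called 5 with rosiglitazone, 7 with diclofenac, 13 with indomethacin, 0 with GQ16 and 0 with GQ16 against rosiglitazone. Arrays shifted to a common median gave 0.22 with indomethacin and 0.22 with ibuprofen. With no filter the counts were 1 with diclofenac, 1 with indomethacin and 2 with GQ16. With the mean of a gene's probes they were 6 with diclofenac, 8 with indomethacin and 1 with ibuprofen against rosiglitazone, which was also 1 without the intensity trend. Leaving out each array in turn gave 5 to 21 calls in the F test, 11 to 24 with rosiglitazone, 0 to 7 with diclofenac, 1 to 9 with indomethacin, 4 to 20 with ibuprofen and 0 to 10 with GQ16. Against rosiglitazone it gave 0 to 1 with diclofenac, 0 to 0 with indomethacin, 0 to 3 with ibuprofen and 3 to 6 with GQ16. The medians then ran from 0.18 to 0.28, 0.16 to 0.23, 0.18 to 0.23, 0.17 to 0.21 and 0.20 to 0.25 with rosiglitazone, diclofenac, indomethacin, ibuprofen and GQ16. Of the uncalled changes that are named here and were recomputed, those of 3 genes turned sign, and leaving out each array in turn gave Mrps18c from -0.67 to 0.20 with rosiglitazone, and Mrps15 from -0.62 to 0.09 with rosiglitazone and from -0.49 to 0.21 with diclofenac. Mrps15 was at 0.04 with diclofenac under the slide block, 0.63 (diclofenac) and 0.26 (ibuprofen) within slide 2, 0.21 (diclofenac) and 0.09 (rosiglitazone) without DMSO replicate 2, and 0 (diclofenac) as the mean of its probes. Mrps18c with rosiglitazone was at 0.09 within slide 1, 0.20 without rosiglitazone replicate 1, and 0.09 without both arrays. Mrps23 was at 0.08 with diclofenac and 0.08 with indomethacin as the mean of its probes. Taken over all pairs, the replicate numbers showed no pairing. The median correlation of 45 same-numbered pairs was -0.01 (lowest -0.33, 10 over 0.1), and that of 90 differently numbered pairs 0.01 (lowest -0.41, 23 over 0.1). Single same-numbered pairs reached 0.53 (replicate 2 of rosiglitazone and of diclofenac, both on slide 1) and 0.48 (replicate 3 of DMSO and of diclofenac), so pairing of some arrays is not excluded. With the replicate block 15 members were called in the F test, 23 with rosiglitazone, 3 with diclofenac, 6 with indomethacin, 10 with ibuprofen, 5 with GQ16, and 0, 0, 0 and 5 against rosiglitazone. The planned neqc correction was not run, because the columns it needs could not be matched to samples.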
